A study of Drosophila melanogaster with 2 samples.

Results

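The genes described here encode the initiation and elongation factors of translation and the aminoacyl-tRNA synthetases of Drosophila melanogaster. They were chosen by symbol from the Ensembl annotation of dm6: protein-coding genes whose symbols start with eIF or eEF, and those made of an amino acid name and RS, with or without -m for mitochondria. The choice gave 85 of 13945 protein-coding genes on the 6 arms, comprising 44 initiation factors, 8 elongation factors, 18 cytosolic synthetases and 15 mitochondrial synthetases. The data are chromatin immunoprecipitation with sequencing of CG18011, a zinc finger protein, in whole embryos of pooled sex aged 0 to 24 h, from a transgenic line with a stable C-terminal GFP fusion of CG18011. An antibody against GFP was used on chromatin sheared to 200 to 800 bp. The 2 biological replicates, with 1 library each, form 1 group and share the line and the tag. No untagged or input library was analysed here, so that the values compare genes with one another and not conditions, and all tissues and stages of the embryo are mixed in each value.

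Translation begins when eIF4E, the cap-binding protein, marks the 5′ end of an mRNA and the small ribosomal subunit, carrying eIF1, eIF3 and the eIF2 complex with the initiator tRNA, scans to the start codon. eIF2B recharges eIF2 with GTP, eIF5B joins the subunits, and eEF1 and eEF2 then deliver aminoacyl-tRNAs and move the ribosome. Aminoacyl-tRNA synthetases attach amino acids to their tRNAs, most of them serving a single amino acid. Nuclear genes supply the synthetases of the cytosol and those of the mitochondria, and in animals several cytosolic synthetases are held in a multisynthetase complex. The classes here follow the symbols alone. A gene that serves both compartments is thus counted as cytosolic where its symbol lacks -m.

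A gene was called bound when a peak of the authors' list cut by the irreproducible discovery rate (IDR), a measure of whether peaks rank alike in the replicates, had its summit within 500 bp of a start site of the gene. Of the 85 genes, 25 were bound. The strongest by far was eIF4E1, and 5 of the 25 held the DNA replication-related element (DRE), TATCGATA, within 100 bp of the summit. The DRE is known as the site of DREF, a factor at promoters of many growth and housekeeping genes. Of the 5 genes with a DRE, eIF2A has its summit in a 5′ UTR and is not shown, since only untranscribed sequence is given. The following stretches of untranscribed dm6 sequence around summits are those of the strongest peak and of the genes with a DRE that could be shown. They are taken from the reference genome, 5′ to 3′ on the strand of the named gene, with capitals for the DRE or for TCGATA, its last 6 bases. Apart from eIF4E1 they were picked for the DRE and do not stand for all bound genes. Of those, 9 of 25 held TCGATA within 100 bp of the summit. The eIF4E1 stretch (chr3L:9402461-9402594, minus strand) ends 1 bp before the start site, and those of eIF1 (chr3L:3222966-3223066, plus strand), eIF3a (chr3R:4433897-4433964, minus strand), eEF1gamma (chr3R:29220117-29220171, plus strand) and IleRS (chr3L:22288443-22288643, plus strand) each hold the whole element.
eIF4E1: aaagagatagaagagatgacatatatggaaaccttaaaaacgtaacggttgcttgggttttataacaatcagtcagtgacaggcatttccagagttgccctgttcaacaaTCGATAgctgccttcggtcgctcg
eIF1: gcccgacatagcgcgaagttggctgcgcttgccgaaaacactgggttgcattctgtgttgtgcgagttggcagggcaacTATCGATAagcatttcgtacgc
eIF3a: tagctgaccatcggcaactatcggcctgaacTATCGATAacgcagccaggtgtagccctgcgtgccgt
eEF1gamma: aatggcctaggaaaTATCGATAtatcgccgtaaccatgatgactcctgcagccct
IleRS: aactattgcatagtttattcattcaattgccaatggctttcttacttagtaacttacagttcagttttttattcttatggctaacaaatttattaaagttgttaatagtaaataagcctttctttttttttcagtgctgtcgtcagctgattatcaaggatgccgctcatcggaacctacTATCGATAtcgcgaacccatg

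The peaks of the eIF1 region and of eIF4EHP show how unlike the other bound stretches could be. Beside the peak above, eIF1 had a weaker IDR peak nearer to its start, from 3223247 to 3223364 on chr3L. The stretch around its summit (chr3L:3223187-3223340, plus strand) holds CAAAAGCT, the reverse complement of AGCTTTTG, upstream of the peak itself. That word of 8 bases had the largest excess at the strongest 10% of IDR peaks away from the 85 genes, and it is in capitals beside TCGATA. The stretch around the eIF4EHP summit (chr3R:24109136-24109236, minus strand) had a GC content of 19.8% and held neither.
eIF1 weaker peak: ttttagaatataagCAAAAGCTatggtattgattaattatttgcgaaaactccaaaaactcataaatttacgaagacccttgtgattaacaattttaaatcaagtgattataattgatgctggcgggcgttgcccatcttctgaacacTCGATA
eIF4EHP: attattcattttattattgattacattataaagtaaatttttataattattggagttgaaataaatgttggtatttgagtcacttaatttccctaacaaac

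Over the whole set the share of bound genes was 29.4% (25 of 85; exact binomial 95% interval from 20.0 to 40.3), while 17.9% of all protein-coding genes were bound. The intervals cover counting error over genes only, and genes that share a peak are not independent. The authors' pooled list, made from both libraries before any threshold on replicates, held a summit within 500 bp of a start site for 64 of the 85 genes, 75.3% (64.7 to 84.0), against 53.6% of all protein-coding genes. By its label that list holds peaks and background, 30000 entries in all. A weak pooled peak may therefore be background, and a gene without a pooled peak is only one absent from this list. Among genes with such a pooled peak, 39.1% of the set (27.1 to 52.1) were bound, against 33.4% of all, which lies within the interval. The set was thus higher than all genes in having a peak in the pooled list, which joins both libraries. Its share of such candidates that passed IDR differed from that of all genes by less than the counting error. By library, 49 of the 85 genes had a peak there in replicate 1 and 64 in replicate 2. Of all 13945 protein-coding genes, 6774 and 7512 had such a peak in the same order, so the excess was smaller in replicate 1. No interval was put on the share of a single library, so an excess beyond the counting error was not shown for replicate 1.

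By class, 13 of 44 initiation factors were bound (29.5%, 16.8 to 45.2), 4 of 8 elongation factors (50%, 15.7 to 84.3), 7 of 18 cytosolic synthetases (38.9%, 17.3 to 64.3) and 1 of 15 mitochondrial synthetases (6.67%, 0.169 to 31.9). The intervals of all 4 classes include the 17.9% of all genes and overlap one another. Of the genes with a pooled peak, 13 of 31, 4 of 6, 7 of 16 and 1 of 11 were bound in the same order, against 33.4% of all, and again each interval includes that share (24.5 to 60.9, 22.3 to 95.7, 19.8 to 70.1 and 0.230 to 41.3). No difference between classes was tested, and with 8 and 15 genes in the smallest classes a share could be placed only roughly.

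**Figure D1:**
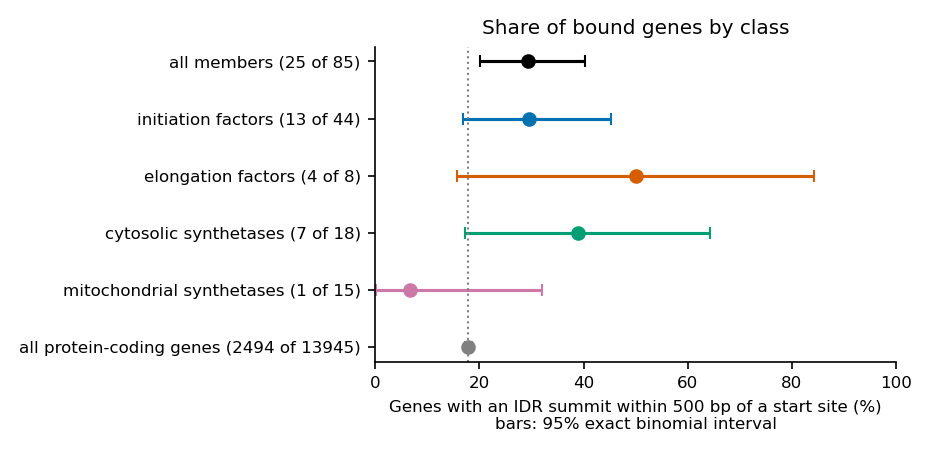
Share of genes with an IDR summit within 500 bp of a start site, in percent, for all 85 genes, the 4 classes and all protein-coding genes; points are shares, bars 95% exact binomial intervals, and the dotted line marks 17.9%. The bars of the 4 classes cross the line, and that of all 85 genes starts at 20.0%.

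The pooled signal, in units of the peak caller that the authors used, described how strong the peaks were. Its median over the bound genes of the set was 355, against 302 over all bound protein-coding genes, and over the 39 genes with a pooled peak alone it was 105, against 90.7 over 4982 such genes. Bound values ran from 189 at eIF3e to 11575 at eIF4E1. All but eIF4E1 and eIF6 ranked below the strongest 10% of the 3290 IDR peaks. Just inside the IDR list lay eIF3e with 189 and eIF3k with 209. Just outside lay ArgRS with 174, CysRS-m with 164 and AlaRS with 161, where the lowest signal of the IDR list was 179. The window mattered for 3 further genes, which had an IDR summit between 500 and 1000 bp from a start: eIF2Bbeta at 682 bp with a signal of 2578, eIF2Bdelta at 712 bp with 262, and LeuRS-m at 927 bp with 670.

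**Figure D2:**
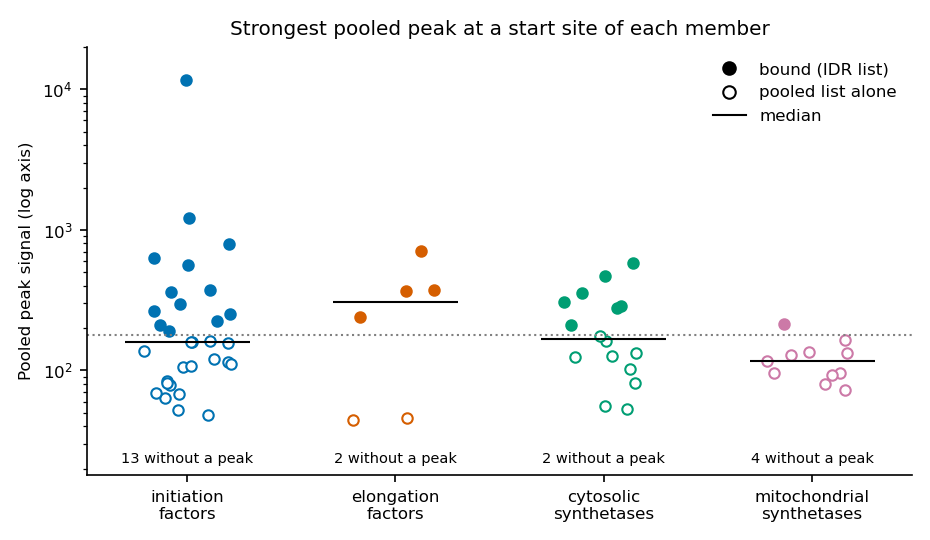
Pooled peak signal (log axis) of the strongest peak at a start site of each gene, by class; filled points are bound genes, open points genes in the pooled list alone, lines the class medians over genes with a peak, and the dotted line the lowest signal of the IDR list, 179. One initiation factor, eIF4E1, stands at 11575, above every other point.

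The genes for cap-binding proteins included the strongest of the set and 4 without any pooled peak. eIF4E1, which brings the capped mRNA to the ribosome, had its summit on chr3L at position 9402494, between genes and 34 bp upstream of the start site used by 4 of its 9 transcripts. Its peak ran from 9401865 to 9403181 and took in 3 of its 4 annotated start sites. The signal was 2305 in replicate 1 and 9371 in replicate 2. The libraries differ in scale, with medians over the IDR peaks of 64.6 in replicate 1 and 223 in replicate 2, so each signal was divided by its library's median to give a relative signal. That of eIF4E1 was 35.7 in replicate 1 and 42.1 in replicate 2, a mean of 38.9 ± 4.49 (SD, n = 2). It ranked 89th of 3290 IDR peaks, and its pooled signal of 11575 was 9.56-fold that of eIF6, the next gene of the set, with 1210. For scale, the gene of the tagged protein, CG18011, held the strongest IDR peak, with a relative signal of 216 in replicate 1 and 256 in replicate 2.

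eIF4EHP, a cap-binding protein that represses translation of maternal mRNAs such as caudal in the early embryo, was the other bound gene of the eIF4E family. Its relative signal was 2.78 in replicate 1 and 2.70 in replicate 2, 2.74 ± 0.0579 (SD, n = 2), so that the libraries all but coincided. The summit on chr3R at 24109186 lay 226 bp upstream of eIF4EHP but only 150 bp from CG18428, which is transcribed the other way. A further 2 IDR peaks lay inside introns of eIF4EHP, away from any start site of the gene, with relative signals of 1.19 ± 0.0634 and 1.15 ± 0.0709 (SD, n = 2 each). The nearest protein-coding start to both was that of Syx1A, at 643 and 6631 bp in the same order. Of the other eIF4E genes, eIF4E6 had a pooled peak alone with a signal of 111, and eIF4E3, which is known for its role in sperm formation, eIF4E4, eIF4E5 and eIF4E7 had no pooled peak at a start site. None of the other 6 eIF4 genes was bound, which allows a share of up to 50% by a limit of 3 counts, against 17.9% of all protein-coding genes. Among them the scaffold eIF4G1 had 48.1, its paralog eIF4G2 108, the helicase eIF4A 83.6 and eIF4H1 81.5 in pooled signal, and eIF4B and eIF4H2 had no pooled peak. Of the eIF4F complex, which joins cap binding, scaffold and helicase, eIF4E1 was thus in the IDR list and neither eIF4G1 nor eIF4A was, with counts too small for more than a description.

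Among the genes for eIF1, eIF2 and eIF2B, which ready the small subunit and the initiator tRNA, eIF1 and eIF2Bgamma had IDR summits within 500 bp of a start. eIF1, which guards start codon choice, had 2.24 in replicate 1 and 1.90 in replicate 2 (2.07 ± 0.241, SD, n = 2), with the summit on chr3L at 3223016. This summit was 325 bp upstream of eIF1 and 56 bp from RpL28, a gene of the large ribosomal subunit read in the other direction. The second and weaker IDR peak of eIF1, 54 bp upstream of its start, had a relative signal of 0.741. The 3 subunits of eIF2 itself, eIF2alpha, eIF2beta and eIF2gamma, were in the pooled list alone, with signals of 68.1, 159 and 137. Of the 5 subunits of eIF2B, the exchange factor of eIF2, eIF2Bgamma was bound, with its summit on chr2R at 15542640, 21 bp upstream of the start. Its relative signal was 1.19 in replicate 1 and 1.03 in replicate 2 (1.11 ± 0.113, SD, n = 2), close to the median IDR peak. eIF2Bdelta and eIF2Bepsilon were in the pooled list alone with 157 and 78.3, and eIF2Balpha and eIF2Bbeta had no pooled peak within 500 bp of a start. The call depends on that window, since eIF2Bbeta and eIF2Bdelta had the IDR summits at 682 and 712 bp given above.

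The single-chain factors outside these complexes included the second strongest gene of the set. eIF6, which binds the large ribosomal subunit and keeps it apart from the small one, had a relative signal of 4.28 in replicate 1 and 4.21 in replicate 2 (4.25 ± 0.0515, SD, n = 2). Its summit on chr2R at 23850414 lay 113 bp upstream of eIF6 and within an exon of the noncoding antisense gene asRNA:CR45928, whose start was 84 bp away. eIF5B, the GTPase of subunit joining, had 1.28 in replicate 1 and 0.772 in replicate 2 (1.02 ± 0.357, SD, n = 2), at a summit in its 5′ UTR on chr3L at 3460744. A further IDR peak in an intron of eIF5B had 0.925 ± 0.0869 (SD, n = 2), with the nearest protein-coding start that of sty, 7939 bp away. eIF2D, known from mammals to deliver tRNA to the small subunit and to act in ribosome recycling, had 1.07 and 0.723 in replicates 1 and 2, with the summit on chr3R at 29151986. eIF2A, not a subunit of eIF2, had 0.591 and 0.919, with the summit in a 5′ UTR on chr3L at 21824893. These last 3 genes thus lay near or below the median IDR peak, and their libraries disagreed on which side of it they fell for eIF5B and eIF2D. The remaining factors eIF1A and eIF5, which act in scanning and in GTP hydrolysis on eIF2, had signals of 114.6 and 68.8 in the pooled list alone.

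eIF3, the scaffold on which the scanning complex is built, was bound at 5 of the 16 genes for its subunits (31.3%, 11.0 to 58.7), eIF3a, eIF3c, eIF3e, eIF3h and eIF3k. Set against 17.9% of all genes, this count lies within the counting error. eIF3h was the strongest, with 2.84 in replicate 1 and 2.07 in replicate 2 (2.46 ± 0.541, SD, n = 2), at a summit in its own intron (chr2L, 5052504), 276 bp downstream of a start. A second IDR peak of eIF3h lay 65 bp downstream of the same start. The core subunit eIF3a had 0.960 and 1.28 (1.12 ± 0.226) and eIF3c had 0.898 and 1.31 (1.10 ± 0.292) in replicates 1 and 2 (SD, n = 2 each). The summit near eIF3a lay between it and CG1074, whose start was nearer, 18 bp against 52 bp. The summits of eIF3a and eIF3c lay on chr3R at 4433947 and on chr2R at 17665683, the second in a 5′ UTR. The 2 weakest bound genes of the set were eIF3e with 0.547 and 0.704 (0.625 ± 0.110) and eIF3k with 0.389 and 0.789 (0.589 ± 0.283), again in replicates 1 and 2 (SD, n = 2 each). Their summits were 36 and 21 bp upstream of the starts, on chr3L at 16786977 and on chr2R at 21685262.

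The other 11 eIF3 genes were not in the IDR list. eIF3m and eIF3b came closest with pooled signals of 161 and 160, followed by eIF3d1 with 121 and eIF3f1 with 105, while eIF3l and eIF3j had 63.9 and 52.6. eIF3d2, eIF3f2, eIF3g1, eIF3g2 and eIF3i had no pooled peak at a start site. For the subunits d and f, which each have a pair of paralogous genes, the copy with the lower number had a pooled peak and the other had none. Of the pair for subunit g neither had a pooled peak. By library, eIF3f2 had a peak at its start in replicate 1 alone and eIF3f1 in replicate 2 alone. Within this 1 protein complex, the peaks at the genes ranged from none to a pooled signal of 633 at eIF3h.

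Of the 8 elongation factor genes, the 4 bound ones were eEF1gamma, eEF2, eEF5 and eEF1alpha1. eEF1gamma, a subunit of the complex that recharges eEF1alpha, had 2.41 in replicate 1 and 2.46 in replicate 2 (2.44 ± 0.0345, SD, n = 2), with its summit on chr3R at 29220167, 5 bp upstream of the start. eEF5, the fly's eIF5A and a carrier of the amino acid hypusine, had 1.23 and 1.33, and eEF2, the translocase, had 1.52 and 1.21 in replicates 1 and 2. The eEF5 summit was on chr2R at 24057767 and that of eEF2 in a 5′ UTR on chr2L at 21682137, 31 and 21 bp upstream of the starts. These 3 genes were above the median IDR peak in both libraries. eEF1alpha1, the main carrier of aminoacyl-tRNA to the ribosome, had 0.889 in replicate 1 and 0.824 in replicate 2 (0.857 ± 0.0461, SD, n = 2). Its summit on chr2R at 11892066 lay in an intron, 56 bp upstream of a downstream start site used by 1 of its 4 transcripts and not at its canonical start.

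The elongation genes that were not bound had among the lowest values of the set. eEF1alpha2, the second gene for eEF1alpha, and eEFSec, which carries selenocysteine tRNA, had pooled signals of 46.0 and 44.2, and eEF1beta and eEF1delta, the other exchange subunits, had no pooled peak. The 4 bound values in the pooled list ran from 241 to 706. Within eEF1, 2 of 5 genes were therefore bound, 1 gene for eEF1alpha and 1 of the exchange subunits. All 4 summits at bound elongation genes lay upstream of their starts, at a median distance of 26 bp, against 130 bp over all bound protein-coding genes. The start is the nearest annotated one, which for eEF1alpha1 and eEF5 is not the canonical start.

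Of the 18 cytosolic synthetases, SerRS, IleRS, GluProRS, AsnRS, ThrRS, AspRS and MetRS were bound. SerRS, which charges serine tRNAs, had 1.60 in replicate 1 and 0.843 in replicate 2 (1.22 ± 0.535, SD, n = 2), at a summit on chr2L at 3037396, 7 bp inside its transcript. This value depends on which peak of a library is read: with the peak whose own summit was nearest, the mean was 1.89. IleRS had 1.93 and 1.57 in replicates 1 and 2 (1.75 ± 0.253, SD, n = 2), with the summit on chr3L at 22288543, between genes and 122 bp upstream. It was the one synthetase above 1.5 in both libraries.

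The other bound cytosolic synthetases lay around the median IDR peak. GluProRS, a single chain that charges both glutamate and proline tRNAs, had 1.12 in replicate 1 and 1.30 in replicate 2, and AsnRS had 1.10 in replicate 1 and 1.09 in replicate 2. ThrRS had 1.27 and 0.932 and AspRS 1.16 and 0.915 in replicates 1 and 2, so that both fell on opposite sides of the median in the 2 libraries. The AspRS start near the summit is used by 1 of its 3 transcripts and is not its canonical start. With canonical starts alone, 6 in place of 7 cytosolic synthetases were bound. MetRS, which also charges the initiator tRNA, was the weakest with 0.848 and 0.644. For 3 of the 7 the nearest start site was that of another gene: AP-1sigma, a gene of a clathrin adaptor, was 54 bp from the GluProRS summit, Nmda1 202 bp from the AspRS summit, and CG15084 48 bp from the MetRS summit. The summits of GluProRS, AsnRS, ThrRS, AspRS and MetRS lay on chr3R at 23958597, on chr2L at 19131985 and 12103555, and on chr2R at 12880028 and 18850796, that of AspRS in an intron and the others between genes. Synthetases known as members of the multisynthetase complex in animals were bound at 4 of 8 genes (GluProRS, IleRS, AspRS and MetRS), and the others at 3 of 10, shares of 50% (15.7 to 84.3) and 30% (6.67 to 65.2). These intervals overlap widely and both include the 17.9% of all protein-coding genes.

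The cytosolic synthetases in the pooled list alone had signals from 53.0 to 174, led by ArgRS with 174, AlaRS with 161, CysRS with 132 and GlnRS with 127. LeuRS and TyrRS had no pooled peak at a start site. Of the 15 mitochondrial synthetases, ArgRS-m alone was bound. It had 0.858 in replicate 1 and 0.742 in replicate 2 (0.800 ± 0.0819, SD, n = 2), below the median IDR peak in both, with the summit on chr3R at 7886895, between genes and 150 bp upstream. The others were led by CysRS-m with a pooled signal of 164, PheRS-m with 134, LeuRS-m with 132 and ProRS-m with 128, all within the range of the unbound cytosolic genes. AspRS-m, GluRS-m, MetRS-m and ValRS-m had no pooled peak at a start site, although AspRS-m had a peak there in the list of each library. MetRS-m had a peak there in the list of replicate 1.

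For 12 amino acids there was, by symbol, 1 gene of each compartment, so that a cytosolic and a mitochondrial gene could be set side by side. The stronger pooled peak was at the cytosolic gene for 8 amino acids and at the mitochondrial gene for 4 (Arg, Cys, Leu and Tyr), counting a gene without a pooled peak as lower. The cytosolic gene alone was bound for 5 amino acids (Asn, Asp, Ile, Met and Ser), the mitochondrial gene alone for Arg, and both for 0. Among pairs with a peak at both genes, the largest contrasts were IleRS with 469 against IleRS-m with 73.1, and SerRS with 584 against SerRS-m with 117. In the opposite sense ArgRS had 174 against 214 at ArgRS-m. For Leu and Tyr the mitochondrial genes had 132 and 93.2 and the cytosolic ones no pooled peak. By library, LeuRS had a peak at a start site in replicate 1 alone and LeuRS-m in replicate 2 alone. No test was made on these pairs, and the direction was not the same in all of them.

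**Figure D3:**
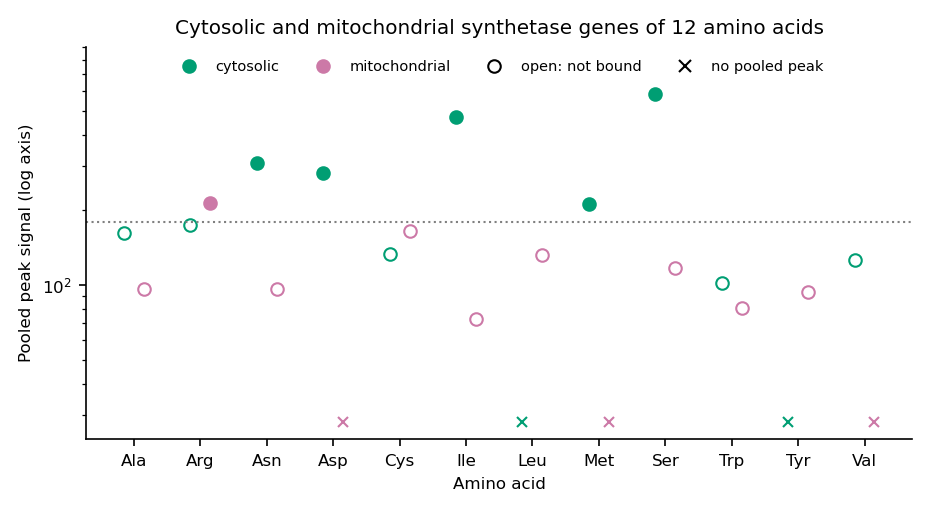
Pooled peak signal (log axis) of the cytosolic (left of each pair) and mitochondrial (right) synthetase genes of 12 amino acids; filled points are bound, open points are in the pooled list alone, crosses have no pooled peak, and the dotted line is the lowest signal of the IDR list, 179. The 5 filled cytosolic points lie between 211 and 584, and the filled mitochondrial point, for Arg, at 214.

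The IDR list keeps peaks that rank alike in the libraries, so that likeness between the libraries at bound genes is largely fixed by that choice and is given as a description. Each of the 25 had a peak in both libraries over its summit, against 97.2% of all IDR peaks. Across the 25 genes the relative signals of the libraries correlated with a Spearman rho of 0.776 (0.747 over 24 genes without eIF4E1), against 0.753 over the 3198 IDR peaks with both values. Relative signals were above 1 in both libraries at 12 genes and below 1 in both at 6, and the remaining genes fell on both sides. The 3290 strongest peaks of replicate 1 overlapped the peaks of 22 of the 25 and those of replicate 2 overlapped 24, against 80.7% and 93.6% of all IDR peaks, with eIF2A, eIF3e and eIF3k missing in the first and MetRS in the second. These 4 exceptions lay in the lower part of the list, while the 6 genes with a mean above 2 were in the strongest peaks of both. The spread between the libraries exceeded 25% of the mean at 6 genes, SerRS and eIF3k the most.

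**Figure D4:**
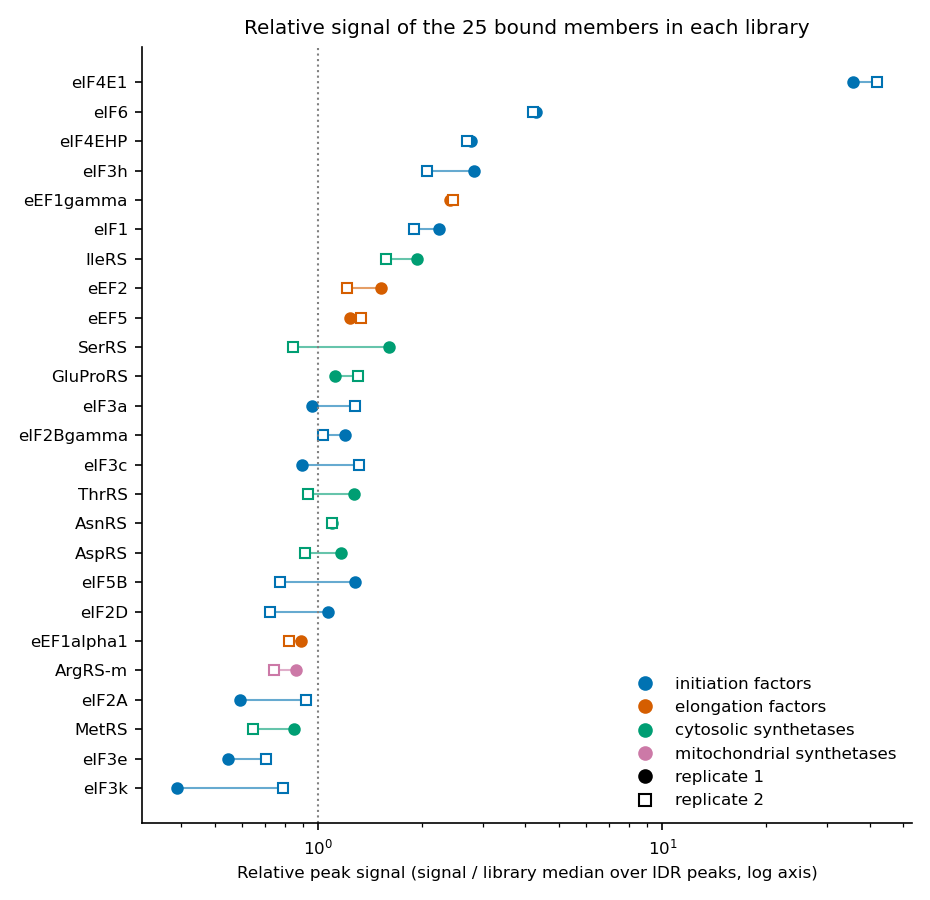
Relative signal (peak signal over the library's median at IDR peaks, log axis) of the 25 bound genes in replicate 1 (filled circles) and replicate 2 (open squares), coloured by class; the dotted line is the median IDR peak. eIF4E1 stands at 35.7 and 42.1, eIF6 at 4.28 and 4.21, and the rest below 3.

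A bound gene has its summit within 500 bp of a start by definition, so distances are set only against those of all bound genes. They are measured to the nearest annotated start of the gene, canonical or not. Of 25 summits, 22 lay upstream of the start (88%, against 86.2% over all bound protein-coding genes), and the median distance was 72 bp, against 130 bp. Between genes lay 16 summits, 5 lay in a 5′ UTR, 3 in an intron and 1 in a noncoding exon. By class, the median distance was 72 bp at initiation genes, 26 bp at elongation genes and 196 bp at cytosolic synthetases. The last are also the class with the highest share of genes that have a divergent neighbour, 88.9%, that is a gene for another protein that starts within 1000 bp and is read in the opposite direction, away from it.

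Divergent starts were common in the set as a whole. They were found at 49 of 85 genes, 57.6%, against 36.2% of all protein-coding genes, and at 16 of 18 cytosolic synthetases. Of the divergent genes 32.7% were bound (16 of 49, 19.9 to 47.5), against 31.9% of all divergent protein-coding genes. Of the genes without a divergent start 25% were bound (9 of 36, 12.1 to 42.2), against 9.92% of all such protein-coding genes. The set thus lay above all genes, beyond the counting error, among genes without a divergent partner, and within the counting error among divergent genes. This split was added after the values had been seen, and the difference between the strata was not tested. The 9 comprised 7 initiation and 2 elongation genes, eIF4E1 and eIF6 among them. All 8 bound synthetases had a divergent partner, but only 2 cytosolic and 8 mitochondrial synthetases lacked one. Of these, 0 of 2 and 0 of 8 were bound, with intervals from 0 to 84.2% and from 0 to 36.9%. Both intervals include the 9.92% of all genes without a divergent start.

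Because a summit within 500 bp of a start can belong to a neighbour, the nearest start was recorded. The summit was nearer to another gene for 7 of the 25, namely eIF6 (asRNA:CR45928), eIF4EHP (CG18428), eIF1 (RpL28), eIF3a (CG1074), GluProRS (AP-1sigma), AspRS (Nmda1) and MetRS (CG15084), of which 6 are protein-coding neighbours. Another protein-coding start lay in the window of 12 genes. Which gene of such a pair a peak serves cannot be told apart from the position alone. Counting each peak only for the nearest protein-coding gene left 20 of 85 genes bound, 23.5% (15 to 34.0), against 13.2% of all genes under the same rule, and 4 in place of 7 cytosolic synthetases.

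**Figure D5:**
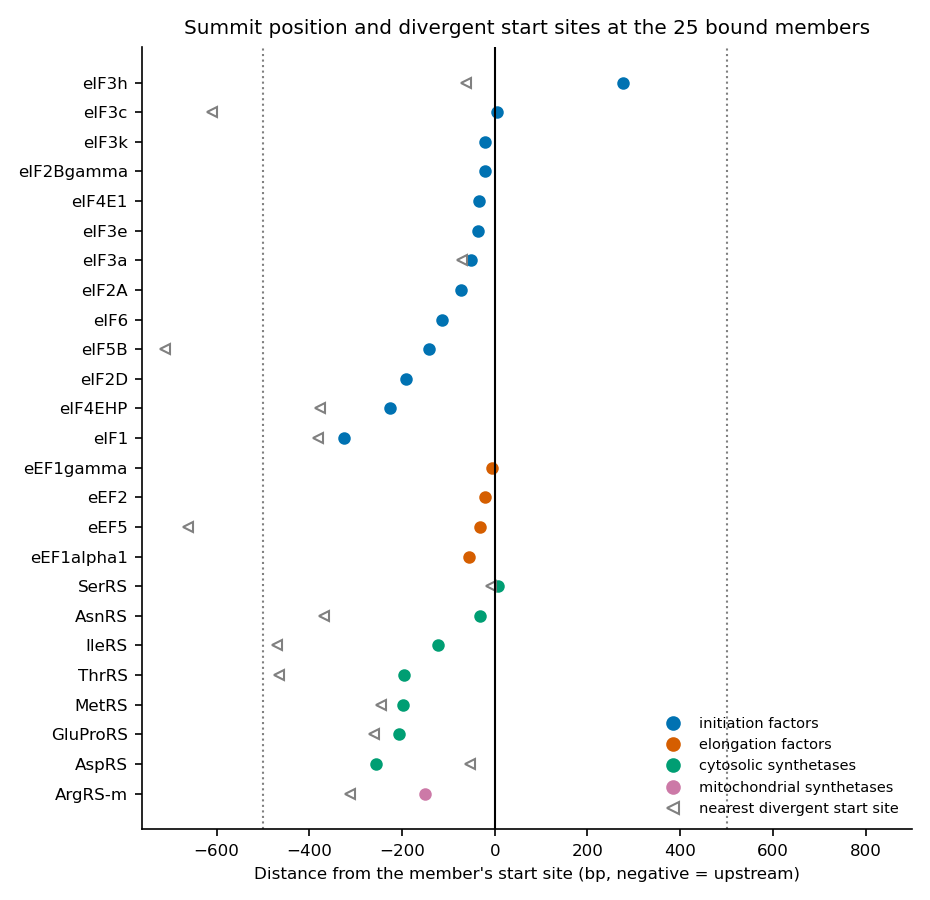
Position of the IDR summit relative to the start site (bp, negative upstream) at the 25 bound genes, coloured by class, with the nearest divergent start as an open triangle; dotted lines mark 500 bp. The elongation genes lie within 56 bp of the nearest annotated start, and the cytosolic synthetases spread from 7 bp inside the gene to 256 bp upstream.

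By chromosome, none of the 10 genes on the X was bound, which allows a share of up to 30%, against 15.3% of X-linked protein-coding genes, so that this count is within what 10 genes can show. Of these 10, 7 had a pooled peak, with a median signal of 68.8. On the large autosome arms, 5 of 11 genes on 2L, 8 of 21 on 2R, 6 of 21 on 3L and 6 of 21 on 3R were bound, against 19.1%, 16.8%, 18.3% and 19.4% of all protein-coding genes of those arms in the same order.

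The sequences around the summits were searched on both strands for words within 100 bp, a match being a description of the letters alone. The DRE, TATCGATA, was found at eIF1, eIF2A, eIF3a, eEF1gamma and IleRS, 5 of 25 bound genes (20%), against 5.20% of all 3290 IDR peaks and 8.34% of IDR peaks at starts of other protein-coding genes. Windows of the same width at canonical starts held it at 16 of the 85 genes, 18.8%, against 7.50% of all protein-coding genes. TCGATA, which is contained in the DRE on both strands and was added after the data had been seen, was found at 9 of 25 (36%), eIF4E1, eEF2, eEF5 and AsnRS being the additions, against 17.3% of all IDR peaks and 23.5% of those at starts of other protein-coding genes. Canonical starts held it at 35 of the 85 genes, 41.2%, against 22.2% of all protein-coding genes. At eIF4E1 it was centred 12 bp downstream of the summit, as printed above.

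Other words were seen at few of the bound genes. GGTCACAC, the core of motif 1, which M1BP is known to bind at housekeeping promoters, was found at eIF2A, eIF3k and eEF1alpha1, 12%, against 2.89% of all IDR peaks and 4.59% of those at starts of other protein-coding genes. Canonical starts held it at 9 of the 85 genes, 10.6%, against 6.52% of all protein-coding genes. AGCTTTTG, the word of the strongest peaks, was found at 16.4% of the strongest 10% of IDR peaks, counted away from the set, and in 1.82% of windows 1000 bp to their left. It was found at 0 of 25 strongest summits of the bound genes, which allows a share of up to 12%, against 3.80% of all IDR peaks, and at 0 of 85 canonical starts of the set. The stretch around the weaker eIF1 peak printed above held it, outside the bounds of the peak itself. CACGTG was found at eEF2 alone, 4% against 2.80% of all IDR peaks, and GAGAG at 3 of 25, 12% against 22.3%. Canonical starts held GAGAG at 7 of the 85 genes, 8.24%, against 22.8% of all protein-coding genes. TATAAA and TCAGT were each found at 9 of 25, 36% against 34.1% and 33.8% of all IDR peaks. None of these words is contained in another except TCGATA in the DRE, and no difference in these shares was tested.

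Other genes of translation were taken from a list of 31 symbols, of which 29 matched the annotation. Of the 29, 7 were bound and 19 had a pooled peak, 24.1% (10.3 to 43.5) and 65.5% (45.7 to 82.1) against 17.9% and 53.6% of all protein-coding genes, both within the counting error. Bound were the release factor gene eRF3, Thor, which encodes the inhibitor of eIF4E known as 4E-BP, Paip2, a repressor of the poly(A)-binding protein, the helicase gene bel, the mitochondrial elongation factor gene mEFTu1, the mitochondrial release factor gene mRF1, and GatA, a subunit of a mitochondrial amidotransferase. Paip2 was the strongest, with 1.93 in replicate 1 and 2.66 in replicate 2 (2.29 ± 0.515, SD, n = 2), and its summit lay 14 bp from its own start. Thor had 0.721 and 0.782, and GatA 1.28 and 1.33 in replicates 1 and 2. The libraries disagreed on bel, with 0.200 in replicate 1 and 0.834 in replicate 2, and on mRF1, which had a peak over the summit in replicate 2 alone. The GatA, eRF3 and mRF1 summits were nearer to other genes, P5cr, SC35 and CG9426. Among the genes that act on eIF4E and eIF2, cup, Gcn2 and mTor had no pooled peak, and PEK and Lk6 had pooled signals of 114 and 86.8. The partners of the multisynthetase complex, AIMP1, AIMP2 and AIMP3, and the cytosolic PheRS subunits were not bound.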

How the data were processed

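Chromatin immunoprecipitation with sequencing was done on 2 libraries of 1 group, per the labels. The authors deposited peak lists on dm6: 1 per library and 1 of both libraries pooled, before any threshold on replicates, and the optimal list thresholded on IDR. The library and pooled lists are labelled as peaks and background, as input for IDR. In these deposited lists a peak has a signal, as the peak caller reported it, and a summit offset in bp. Not given in the sources used here: peak caller, scaling of the signal, IDR cutoff and number of reads, so that no counting interval can be put on a signal. Per the text deposited with the libraries, the lists derive from alignments and a control, which was not analysed here, and the dm3 lists were not used.

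From these lists, summits were placed within 500 bp of start sites of Ensembl release 115 (BDGP 6.54) on 6 arms, whose sequence lengths in the RefSeq genome hold all peaks. Other genes took the strongest pooled peak there, or none. A library's signal is that of its strongest peak over the IDR summit, divided by its median over the IDR peaks. Shares have 95% exact (Clopper-Pearson) intervals; a share of 0 has a limit of 3 counts. No condition could be compared, so no test was made. The search for genes, library values and words was tested on simulated data.

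Named are all bound genes, the strongest up to 4 unbound ones of each class, those without a pooled peak, nearer neighbours and bound genes of the other list; further eIF2, eIF2B, eIF3 and eIF4 genes and regulators were named after their values were seen. The members, lists and motifs were chosen with earlier results of these data known. Alternatives were windows of 250 and 1000 bp, the stronger 50% and 10% of IDR peaks, canonical starts, nearest genes, any overlap, addition of both PheRS subunits, another scaling, another library peak, motif flanks of 50 and 200 bp and leaving out each replicate. The tools were pandas 2.3.3 and numpy 2.4.6 for tables, scipy 1.17.1 for intervals, pysam 0.24.0 for sequence and matplotlib 3.10.9 for figures, in Python 3.11.15.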

Additional observations from a re-analysis of the deposited data

How the results depend on the processing

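Counts of bound genes kept within 1.5 times their value under most alternatives. Over all 85 genes the count was 25, and 17 to 28 under every alternative except the strongest 10% of IDR peaks. The stronger 50% of IDR peaks left 17 genes, 20% of the set, against 9.98% of all protein-coding genes. The strongest 10% left 2, both initiation factors, 2.35% against 1.81%. That list left 0 elongation factors, 0 cytosolic and 0 mitochondrial synthetases. The stronger 50% of IDR peaks left 8 initiation factors in place of 13 and 0 mitochondrial synthetases in place of 1. A window of 1000 bp gave 2 mitochondrial synthetases. Counting a peak only for the nearest protein-coding gene gave 4 cytosolic synthetases in place of 7. Without 1 replicate, the counts were 25 to 26 for all genes, 12 to 14 for initiation factors, 4 for elongation factors, 6 to 8 for cytosolic and 1 to 2 for mitochondrial synthetases, the 2 being without replicate 1. Adding the alpha and beta subunits of PheRS changed no count of bound genes. TCGATA in place of the DRE, an alternative added after the data had been seen, gave 9 bound genes in place of 5, and a flank of 200 bp gave 1 gene with AGCTTTTG in place of 0. Scaling each library by the median of all its peaks multiplied every relative signal by 3.93 to 3.98 and left the order nearly as it was (Spearman rho 0.999). The shorter lists hold fewer peaks by design, and the causes of these changes were not tested. No paired analysis was possible because the 2 libraries form 1 group. eIF3k was 0.661 times its mean without replicate 2, the one bound gene to move by over 1.5 times when a replicate was left out. With the library peak whose own summit was nearest, SerRS alone moved by over 1.5 times, to 1.55 times its mean. The unknown read depth limits all signals, no control library was analysed here, and small classes limit all shares.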
